A study of Mus musculus with 69 samples.

Results

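Toll-like receptors and the proteins that carry and relay their signals were read in kidney RNA from NZB/W F1 mice, a strain in which females develop an immune complex nephritis like that of lupus. The genes were chosen by name, and the 10 that were looked up, Tlr2, Tlr3, Tlr4, Tlr7, Tlr8, Tlr9, Tlr13, Unc93b1, Myd88 and Irf5, were all present among the 24523 gene symbols with counts in each library. Female NZB/W F1 mice formed 3 groups in 65 original libraries: 30 young mice of 12 weeks, 27 nephritic mice of 30 to 45 weeks and 8 remission mice of 36 to 50 weeks. The remission mice had nephritis and received 1 dose of cyclophosphamide at 50 mg/kg with 6 doses of CTLA4Ig (200 µg) and of antibody to CD40L (250 µg), and their kidneys were taken 8 weeks after remission was induced. Kidneys of young and nephritic mice were taken at 6 Zeitgeber times, counted in hours from lights on (ZT0, 4, 8, 12, 16 and 20), with 4 to 7 young and 3 to 7 nephritic mice at each, and those of remission mice at ZT0 and ZT12, with 4 mice at each. No group of old mice without nephritis was analysed here, so age and nephritis cannot be told apart. The whole perfused kidney was sequenced as 1 poly-A library per mouse, so fewer cells of a type and less RNA per cell cannot be told apart in any value that follows.

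Toll-like receptors are innate sensors that recognise conserved molecules of microbes and, in autoimmune disease, nucleic acids of the body itself. Tlr2 and Tlr4 sit at the cell surface and bind bacterial lipoproteins and lipopolysaccharide. Tlr3, Tlr7, Tlr8, Tlr9 and Tlr13 sit in endosomes and bind nucleic acids: double-stranded RNA for Tlr3, single-stranded RNA for Tlr7 and Tlr8, unmethylated CpG DNA for Tlr9 and bacterial ribosomal RNA for Tlr13. Unc93b1 is the chaperone that carries the endosomal receptors out of the endoplasmic reticulum. Myd88 is the adaptor of all of these receptors except Tlr3, and Irf5 is a transcription factor that acts after Myd88 and is a known risk gene of human lupus. Tlr7 and Tlr9 are known for driving antibody formation to RNA and DNA in mouse lupus, mainly through B cells, dendritic cells and macrophages.

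The genes lie on 7 chromosomes of GRCm38 (GENCODE vM21), and 3 of the endosomal receptors are on the X chromosome: Tlr13 at chrX:106143204-106160493, Tlr8 at chrX:167242696-167264329 and its neighbour Tlr7 at chrX:167304929-167330558. Tlr9 (chr9:106222598-106226883) and Myd88 (chr9:119335934-119341411) share chromosome 9. Tlr2 is at chr3:83836272-83841767, Tlr4 at chr4:66827584-66930284, Irf5 at chr6:29526625-29541871, Tlr3 at chr8:45395665-45411080 and Unc93b1 at chr19:3935186-3949340. The strand setting of the authors' counting is not given in the sources used here, and reads in exons shared by genes on opposite strands cannot be told apart without it. Such exons made up 14.2% of the merged exon bases of Irf5, shared with Tnpo3, 11.3% of those of Myd88, shared with Acaa1a, and 7.32% of those of Tlr3, shared with an antisense gene that the count files do not list.

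RefSeq promoter sequence of the GRCm38.p6 build was given for 7 of the 10 genes, and Tlr4, Tlr7 and Unc93b1 had no entry. The 250 bases before the RefSeq start are shown for the 3 receptors that changed most between young and nephritic kidneys, Tlr8, Tlr9 and Tlr13, and for the surface receptor Tlr2, each 5′ to 3′ on its own strand, and capitals mark a match to 1 of the 5 motifs named after them. GENCODE starts the genes at the end of the windows of Tlr8 and Tlr9, but further upstream for Tlr2 and Tlr13, so the bases of those windows nearest the RefSeq start lie within the GENCODE gene.
Tlr8 (chrX:167264330-167264579, minus strand): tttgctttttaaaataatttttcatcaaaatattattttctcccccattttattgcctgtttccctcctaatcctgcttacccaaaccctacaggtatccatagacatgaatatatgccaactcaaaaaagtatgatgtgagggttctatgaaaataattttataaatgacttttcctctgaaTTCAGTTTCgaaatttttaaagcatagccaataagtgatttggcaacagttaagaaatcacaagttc
Tlr9 (chr9:106222348-106222597, plus strand): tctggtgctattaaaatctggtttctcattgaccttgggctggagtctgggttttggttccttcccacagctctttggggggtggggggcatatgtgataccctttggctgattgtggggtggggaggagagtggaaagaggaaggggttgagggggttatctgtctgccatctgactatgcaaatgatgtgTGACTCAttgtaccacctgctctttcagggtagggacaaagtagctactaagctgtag
Tlr13 (chrX:106143025-106143274, plus strand): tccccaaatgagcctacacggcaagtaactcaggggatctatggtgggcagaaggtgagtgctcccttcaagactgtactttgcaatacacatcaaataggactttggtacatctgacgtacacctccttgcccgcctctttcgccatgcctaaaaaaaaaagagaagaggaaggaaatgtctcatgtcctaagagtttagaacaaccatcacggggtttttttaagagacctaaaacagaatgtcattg
Tlr2 (chr3:83841609-83841858, minus strand): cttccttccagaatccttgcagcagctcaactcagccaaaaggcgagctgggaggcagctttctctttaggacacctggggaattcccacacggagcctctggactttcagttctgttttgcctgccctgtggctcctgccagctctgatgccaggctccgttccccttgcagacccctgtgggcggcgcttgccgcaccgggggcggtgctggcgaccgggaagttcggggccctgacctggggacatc
The motifs were the E-box of clock factors (CACGTG), an interferon response element (GAAANNGAA), a PU.1 element (GAGGAAGT), an AP-1 element (TGANTCA) and an NF-κB element (GGGANTTTC), each searched on both strands, with N for any base. No match overlapped another. Tlr8 held 1 interferon response match (TTCAGTTTC on the strand shown, 67 bases before the start) and Tlr9 held 1 AP-1 match (TGACTCA, 58 bases before the start), while Tlr13, Tlr2 and Irf5 held none of these letters in this window. Among the promoters that are not shown, the windows of Myd88 and Tlr3 lie wholly within the GENCODE genes. Myd88 held 1 interferon response match (GAAAGCGAA) and Tlr3 held 1 NF-κB match (GGGAGTTTC). Over all 32851 promoters the same windows held an E-box in 6.02%, an interferon response match in 7.13%, a PU.1 match in 2.44%, an AP-1 match in 6.75% and an NF-κB match in 0.941%.

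Total counts per library ran from 25257530 to 35744843 in young, 26596500 to 48075977 in nephritic and 13311278 to 21849912 in remission mice. Kidney identity was checked on 8 tubule markers, whose summed level ran from 11980 to 20960 CPM (counts per 1000000 counts of the library, with TMM scaling) with a median of 15710 in young, from 4853 to 17430 with a median of 12700 in nephritic and from 13200 to 16580 with a median of 16080 in remission mice. Young and nephritic mice belonged to 2 sequencing sets, of which Set 1 held 6 young and 5 nephritic mice of ZT0 and ZT12. The remission libraries came from a separate sequencing run, in which 4 young and nephritic mice were sequenced a second time. One remission mouse labelled ZT12, s9, had a level of the clock gene Arntl of 27.01 CPM, where the other 3 ZT12 remission mice had 3.19 to 4.89 and the 4 ZT0 mice 23.1 to 28.8, so results on remission are given with and without it. The second library of the nephritic mouse RX11RU was closer to that of another mouse, RX11LU (r = 0.991 over genes), than to its own first library (r = 0.978), so the runs were also bridged without it.

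In young kidneys the receptors were among the low transcripts of the set. Levels between genes were compared as CPM per kilobase of merged exons. The median of young mice was highest for Myd88 (8.06 CPM per kb) and Unc93b1 (6.51), followed by Irf5 (5.62), Tlr3 (2.55), Tlr2 (1.48), Tlr4 (1.04), Tlr7 (0.360), Tlr13 (0.270), Tlr8 (0.124) and Tlr9 (0.124). Neighbours in this order whose mean ± SD overlapped were Unc93b1 with Irf5, Tlr2 with Tlr4, Tlr7 with Tlr13, and Tlr8 with Tlr9. Tlr3 thus stood apart from the other 4 endosomal receptors, which all lay below both surface receptors. In nephritic kidneys the order was Unc93b1 (17.4), Myd88 (10.9), Irf5 (6.84), Tlr2 (4.35), Tlr3 (3.13), Tlr4 (2.07), Tlr13 (1.47), Tlr8 (1.34), Tlr7 (1.07) and Tlr9 (0.764), and the mean ± SD of every pair of neighbours overlapped except that of Tlr3 and Tlr4.

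All 10 genes were higher in nephritic than in young kidneys, by 0.27 (Tlr3) to 3.51 (Tlr8) on the log2 scale. The test was edgeR's quasi-likelihood F test with time point and sequencing set as covariates and Benjamini-Hochberg adjustment over 17521 genes, and 28.1% of these genes were called higher, with 0.05 as the limit of the adjusted p. The median log2 change was 1.57 over the 10 genes, 2.51 over the 5 endosomal receptors and 1.23 over the 2 surface receptors, and −0.03 over all genes tested. Each call held under every alternative and without any 1 of the 57 mice.

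**Figure D1:**
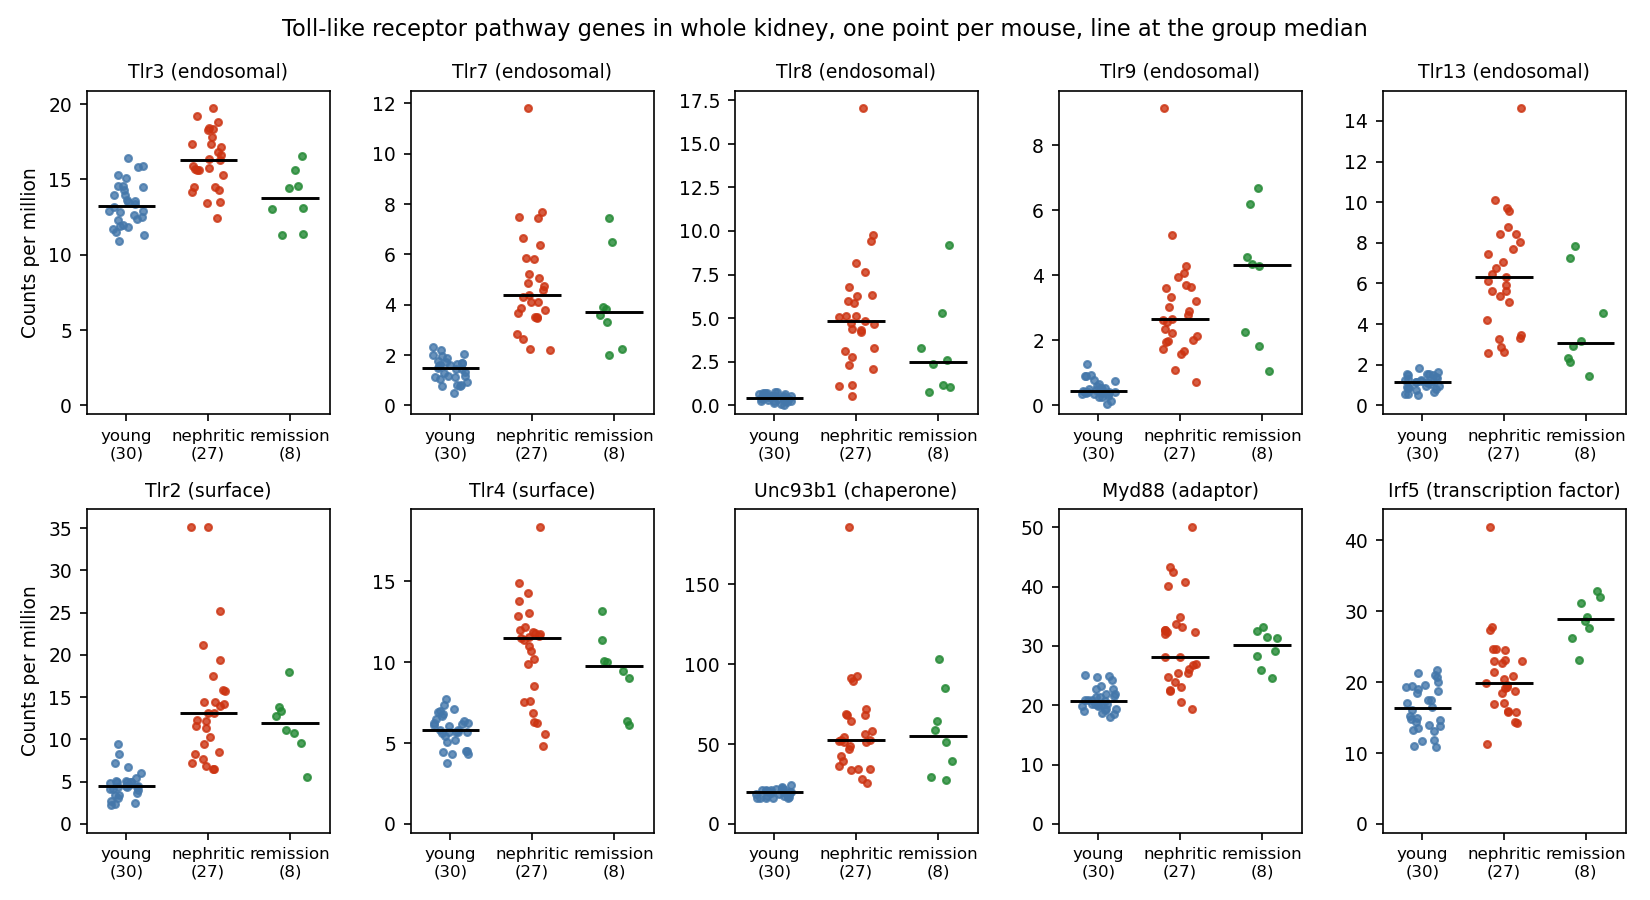
Level of each of the 10 genes in each original library, in CPM on a linear axis, for 30 young, 27 nephritic and 8 remission mice, with a line at each group's median. Nephritic mice of Tlr13 and Unc93b1 lie wholly above the young mice, while those of Tlr3, Myd88 and Irf5 overlap them.

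Tlr8 changed most among the endosomal receptors. It was barely detected in young kidneys, at 0 to 0.789 CPM with a median of 0.445 and 0 to 25 reads per library, and it lay at 0.525 to 17.03 CPM with a median of 4.82 in nephritic kidneys. Of the 27 nephritic mice 26 lay above every young mouse, and RX7LU at ZT8 was the exception. The log2 change was 3.51 ± 0.22 (SE, adjusted p = 1.5e-19). Tlr9, the DNA receptor, ran from 0.0348 to 1.27 CPM in young mice with a median of 0.430 and from 0.722 to 9.14 CPM in nephritic mice with a median of 2.66, and 25 nephritic mice lay above every young mouse. Its log2 change was 2.57 ± 0.17 (adjusted p = 2.2e-18). Both genes had few reads in young kidneys, which limits the precision of their fold changes.

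Tlr13, which binds bacterial ribosomal RNA, separated the groups. Young mice lay at 0.529 to 1.82 CPM with a median of 1.16 and nephritic mice at 2.59 to 14.6 CPM with a median of 6.33, so that all 27 nephritic mice exceeded all 30 young mice. The log2 change was 2.51 ± 0.12 (adjusted p = 3.0e-23). Tlr7, the RNA receptor next to Tlr8 on the X chromosome, lay at 0.495 to 2.33 CPM with a median of 1.47 in young and at 2.20 to 11.8 CPM with a median of 4.38 in nephritic mice. The groups overlapped in 1 young and 2 nephritic mice, and the log2 change was 1.76 ± 0.12 (adjusted p = 8.0e-19).

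Tlr3 moved least of all. It lay at 10.9 to 16.4 CPM with a median of 13.3 in young and at 12.5 to 19.7 CPM with a median of 16.3 in nephritic mice, and 12 of 27 nephritic mice exceeded every young mouse. Its log2 change of 0.27 ± 0.04 passed the test (adjusted p = 1.4e-08). The 95% interval of this change, 0.20 to 0.34, lay below that of every other gene of the set except Irf5, whose interval ran from 0.21 to 0.50.

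Of the surface receptors, Tlr2 rose more than Tlr4. Tlr2 lay at 2.24 to 9.51 CPM with a median of 4.45 in young and at 6.50 to 35.2 CPM with a median of 13.1 in nephritic mice, and 19 of 27 nephritic mice exceeded every young mouse. Its log2 change was 1.61 ± 0.13 (adjusted p = 1.1e-15). Tlr4 lay at 3.78 to 7.74 CPM with a median of 5.79 in young and at 4.82 to 18.4 CPM with a median of 11.5 in nephritic mice. The log2 change of Tlr4 was 0.85 ± 0.08 (adjusted p = 1.6e-12), and 20 nephritic mice exceeded every young mouse. The intervals of Tlr2 (1.36 to 1.86) and Tlr7 (1.53 to 1.99) overlapped, so the change of this surface receptor was not set apart from that of every endosomal one.

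Unc93b1, the chaperone of the endosomal receptors, was well expressed and separated the groups as Tlr13 did. Young mice lay in a narrow band of 16.2 to 24.1 CPM with a median of 19.7, and nephritic mice at 25.6 to 186.0 CPM with a median of 52.7. All 27 nephritic mice were above all 30 young mice, and the log2 change was 1.54 ± 0.12 (adjusted p = 1.8e-16). Tlr13 and Unc93b1 were the 2 genes of the 10 without overlap, against 0.885% of the 17521 genes tested in which every nephritic mouse lay above every young mouse.

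The adaptor Myd88 and the transcription factor Irf5 changed less than the receptors other than Tlr3. Myd88 lay at 18.01 to 25.2 CPM with a median of 20.8 in young and at 19.4 to 50.1 CPM with a median of 28.1 in nephritic mice, with 20 nephritic mice above every young mouse and a log2 change of 0.51 ± 0.06 (adjusted p = 1.1e-09). Irf5 lay at 10.9 to 21.7 CPM with a median of 16.3 in young and at 11.3 to 41.9 CPM with a median of 19.9 in nephritic mice. For Irf5 10 nephritic mice exceeded every young mouse, 28 of 30 young mice lay above the lowest nephritic mouse, and the log2 change was 0.35 ± 0.07 (adjusted p = 5.3e-05). The genes that share exons with them moved the other way, Acaa1a by −0.34 ± 0.05 (adjusted p = 2.9e-07) and Tnpo3 by −0.20 ± 0.04 (adjusted p = 3.6e-05) in the same edgeR fit.

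**Figure D2:**
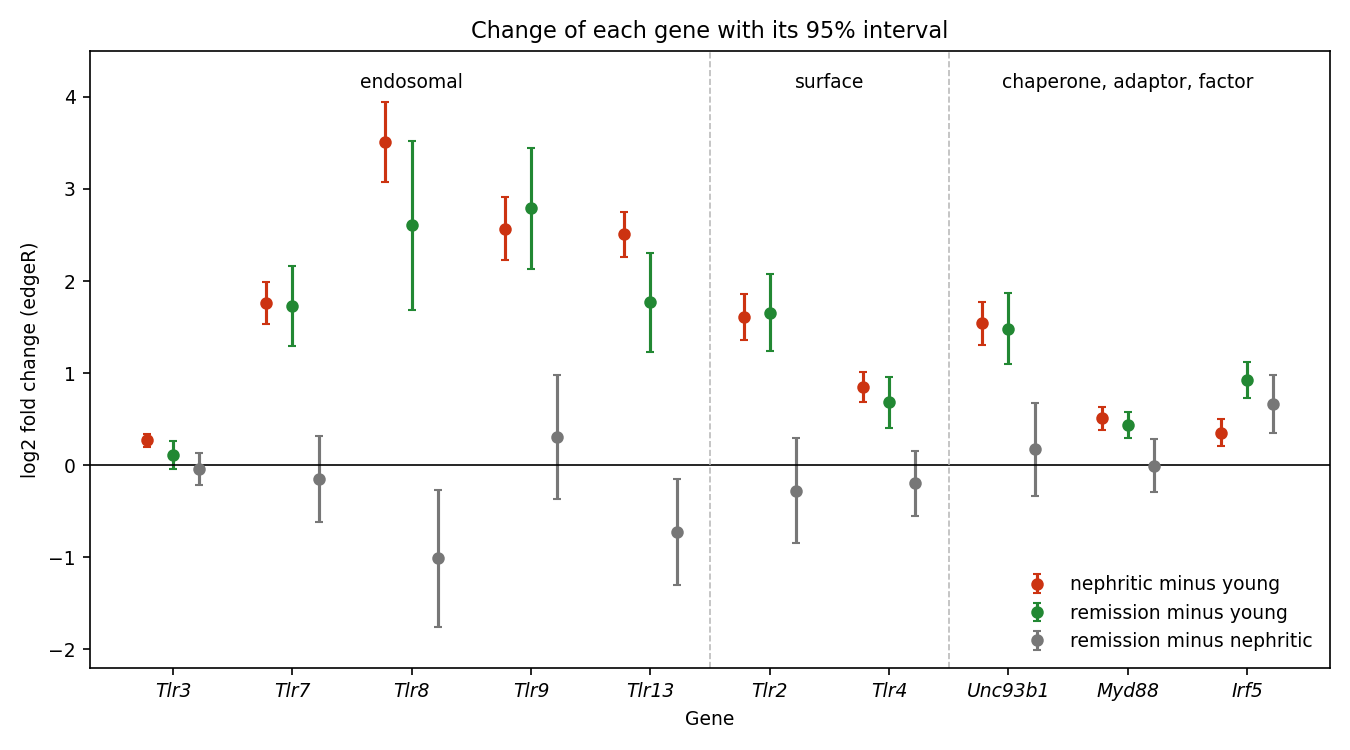
Log2 fold change from edgeR for each gene with its 95% interval, for nephritic minus young (27 and 30 mice), remission minus young (8 and 14 mice of ZT0 and ZT12) and remission minus nephritic (8 and 13 mice of ZT0 and ZT12). Tlr8, Tlr9 and Tlr13 show the 3 highest changes in nephritic mice and Tlr3 the lowest, and the intervals of remission minus nephritic cross 0 for 7 of the 10 genes.

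The balance of endosomal to surface receptors was described per mouse as the mean log2 CPM of the 5 endosomal receptors minus that of Tlr2 and Tlr4. Transcript length adds a constant to this difference, so only its shift between groups can be read. It ran from −2.22 to −1.21 in young mice with a mean of −1.89 ± 0.24 (SD, n = 30), and from −1.62 to −0.47 in nephritic mice with a mean of −1.05 ± 0.28 (SD, n = 27). In 21 of 27 nephritic mice the difference exceeded that of every young mouse. Without Tlr3 the means were −2.71 ± 0.29 in young and −1.44 ± 0.35 in nephritic mice, and 26 of 27 nephritic mice lay above every young mouse. Remission mice had a mean of −1.25 ± 0.35 (SD, n = 8), and 3 of the 8 lay above every young mouse. The mouse s9, at −1.23, was not among these 3. Without Tlr3 the mean of the remission mice was −1.66 ± 0.51, and 6 of the 8 lay above every young mouse. All 8 came from the separate run, and its part in these values was not tested.

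**Figure D3:**
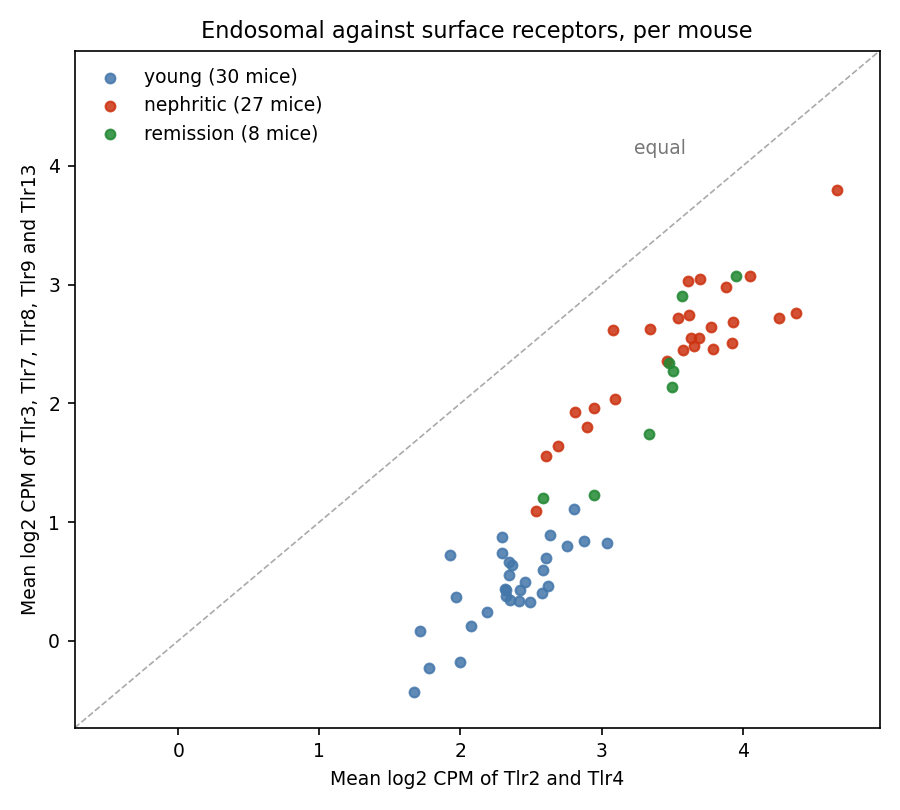
Mean log2 CPM of the 5 endosomal receptors against that of Tlr2 and Tlr4, 1 point per original library, with a dashed line where both are equal. Young mice lie at the lower left, nephritic mice up and to the right of them and nearer to the line, and remission mice between and among the nephritic mice.

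Other genes of these pathways were read from lists of names, beside the 28.1% of all genes called higher and the 33.9% called lower in nephritic mice. Of 10 other receptors and co-receptors, 8 rose and 1 fell in nephritic mice with a median log2 change of 0.88, led by Ly86 (2.37 ± 0.14, adjusted p = 1.9e-20), Cd14 (2.33 ± 0.21, adjusted p = 6.4e-14) and Cd180 (2.33 ± 0.18, adjusted p = 1.7e-16). Cd14 hands lipopolysaccharide to Tlr4, and Cd180 with its partner Ly86 is a receptor-like pair of B cells and myeloid cells. The 1 gene that fell was Tlr12 (−0.32 ± 0.08, adjusted p = 5.7e-04), at a median of 21.3 CPM in young mice. Of the other Toll-like receptors of this list, Tlr1 (1.98 ± 0.14), Tlr6 (0.95 ± 0.10) and Tlr11 (0.82 ± 0.145) rose and Tlr5 (0.41 ± 0.19) was not called. None of these receptors, nor Tlr12, is counted in the endosomal and surface values given above. Of 17 tested genes of endosomal trafficking and processing, 10 rose and 3 fell with a median of 0.18. Those with the largest changes were Ctss (3.03 ± 0.15, adjusted p = 5.7e-23), a lysosomal protease that cleaves endosomal receptors, 5430427O19Rik (2.66 ± 0.22, adjusted p = 3.2e-15), the former symbol of Tasl, an adaptor that recruits Irf5, and Pld4 (2.61 ± 0.14, adjusted p = 1.2e-22), an exonuclease that degrades single-stranded nucleic acids in endosomes.

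The next lists stand beside the same shares of all genes, 28.1% called higher and 33.9% called lower. Of 26 adaptors, kinases and transcription factors, 12 rose, 5 fell and 9 did not pass, with a median of 0.07. The largest changes were in Ticam2 (2.25 ± 0.15, adjusted p = 1.2e-18), an adaptor of Tlr4 signals from endosomes, Irf7 (1.88 ± 0.12, adjusted p = 7.1e-20), a transcription factor of type I interferon genes, and Relb (1.64 ± 0.13, adjusted p = 1.2e-15), a member of the NF-κB family. Among 12 inhibitors 7 rose and 4 fell with a median of 0.48, with the largest changes in Cd300lf (4.17 ± 0.27, adjusted p = 4.6e-19), an inhibitory receptor of myeloid cells, Socs1 (1.54 ± 0.17, adjusted p = 1.9e-11), which dampens cytokine signals, and Tnfaip3 (1.28 ± 0.10, adjusted p = 2.3e-15), which restrains NF-κB. The list for cytosolic nucleic acid sensing also held genes that are not themselves nucleic acid sensors, such as Mavs, Nlrp3, Nod1 and Nod2. This list had the largest share of called genes of these 5 lists, since 17 of 19 rose and 1, Mavs, fell, with a median of 1.31. It was led by Oas3 (3.10 ± 0.20, adjusted p = 1.5e-19) and Oas2 (2.44 ± 0.14, adjusted p = 3.0e-21), which sense double-stranded RNA, and Zbp1 (2.55 ± 0.16, adjusted p = 9.0e-20), which senses Z-form nucleic acids.

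Markers of other cell types differed between the groups as well, beside the 28.1% of all genes called higher and the 33.9% called lower. Of 10 macrophage markers 9 rose and 1 fell in nephritic mice (median log2 change 2.58), and their summed level ran from 159.7 to 274.5 CPM in young and from 261.9 to 1024 CPM in nephritic mice. All 8 B cell markers rose (median 4.02), with sums of 1.86 to 27.9 CPM in young and 9.09 to 377.5 CPM in nephritic mice, and Pax5 had a median of 0 in young mice. All 8 T cell markers rose (median 2.67), with sums of 6.90 to 14.8 CPM in young and 11.4 to 214.0 CPM in nephritic mice, and so did 6 of 7 dendritic cell markers (median 1.25), with sums of 6.98 to 16.3 and 10.5 to 90.8 CPM. Of 7 plasmacytoid dendritic cell markers 4 rose and 2 fell (median 0.60). Those that rose were Spib (3.67 ± 0.27), Pacsin1 (1.25 ± 0.14), Runx2 (0.89 ± 0.12) and Ccr9 (0.60 ± 0.15). Those that fell were Cox6a2 (−0.56 ± 0.15) and Klk1 (−0.31 ± 0.11), which the kidney itself makes. Siglech had a log2 change of 0.05 ± 0.14 (adjusted p = 0.763). Of 7 neutrophil markers 5 had enough reads to be tested and 2, Csf3r and Mmp9, rose (median 0.49), with sums of 1.09 to 14.98 CPM in young and 2.74 to 20.4 CPM in nephritic mice. Of the 8 tubule markers 5 fell and 1, Aqp2, rose (median −0.55), 3 of 6 endothelial markers fell (median −0.11), and 4 of 5 adrenal markers fell (median −3.46). Sums of the adrenal markers had close medians, 5.94 CPM in young and 5.20 CPM in nephritic mice. Their highest values were 1044 and 629.0 CPM. Star alone had medians of 5.71 CPM in young and 5.135 CPM in nephritic mice. The medians of Cyp11b1 were 0.161 and 0.0269 CPM and those of Dbh 0.0639 and 0 CPM, while Cyp11b2 and Th had 0 in both groups. Whether the fall lies in the highest libraries alone was not tested. None of these lists held any of the 10 genes, and the part of each cell type in the levels of the 10 genes was not tested.

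Within the 27 nephritic mice, log2 levels of the 10 genes were set against the log2 summed level of macrophage, B cell and tubule markers, 30 relations in all, with two-sided permutation tests of 100000 resamples and Benjamini-Hochberg adjustment over the 30. Macrophage markers gave a correlation that passed for 9 of the 10 genes. Pearson's r was highest for Tlr7 (r = 0.917, rho = 0.883), Tlr13 (r = 0.901, rho = 0.834), Tlr8 (r = 0.900, rho = 0.861) and Unc93b1 (r = 0.889, rho = 0.768), each with a permutation p of 1.0e-05 for r, the smallest that these resamples can give, and an adjusted p of 3.0e-05. Tlr4 (r = 0.833, rho = 0.709), Tlr9 (r = 0.805, rho = 0.759) and Tlr2 (r = 0.768, rho = 0.677) followed with the same permutation p. Irf5 (r = 0.726, rho = 0.711, permutation p = 4.0e-05, adjusted p = 1.1e-04) and Myd88 (r = 0.701, rho = 0.626, permutation p = 8.0e-05, adjusted p = 2.0e-04) passed as well, while Tlr3 did not (r = 0.246, rho = 0.231, permutation p = 0.216, adjusted p = 0.231). The permutation p of rho ran from 1.0e-05 to 6.4e-04 for the 9 genes that passed. Without the 2 mice farthest from the median of the marker sum, r lay between 0.555 and 0.871 for the 9 genes, and in Set 2 mice alone (22 mice) between 0.654 and 0.900.

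Correlations with B cell markers were lower and less stable. They passed for 7 of 10 genes, with the highest r for Tlr7 (r = 0.751, rho = 0.703, permutation p = 1.0e-05 for r and 7.0e-05 for rho, adjusted p = 3.0e-05), but without the 2 mice with the most distant marker sums only that of Tlr7 (r = 0.587) still passed, and in Set 2 mice alone those of Tlr4, Tlr9 and Irf5 did not. For the other 6 genes r without those 2 mice was 0.426 (Irf5), 0.410 (Unc93b1), 0.381 (Tlr8), 0.363 (Tlr13), 0.152 (Tlr4) and 0.141 (Tlr9). By rank over all 27 mice, Tlr8, Tlr13, Irf5 and Unc93b1 also passed (permutation, adjusted p of rho from 0.00994 to 0.0121), while Tlr4 (adjusted p = 0.115) and Tlr9 (adjusted p = 0.106) did not. Tubule markers ran the other way, with negative correlations that passed for 7 genes and were strongest for Myd88 (r = −0.839, rho = −0.808, permutation p = 1.0e-05 for both, adjusted p = 3.0e-05), Tlr2 (r = −0.715, rho = −0.681, permutation p = 1.0e-05 for r and 1.6e-04 for rho, adjusted p = 3.0e-05) and Unc93b1 (r = −0.685, rho = −0.797, permutation p = 1.0e-04 for r and 1.0e-05 for rho, adjusted p = 2.3e-04). Without the 2 most distant mice those of Myd88, Tlr2 and Unc93b1 were −0.789, −0.643 and −0.612, and that of Tlr8 no longer passed (r = −0.276), and in Set 2 mice alone those of Tlr3, Tlr4 and Tlr8 did not pass.

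**Figure D4:**
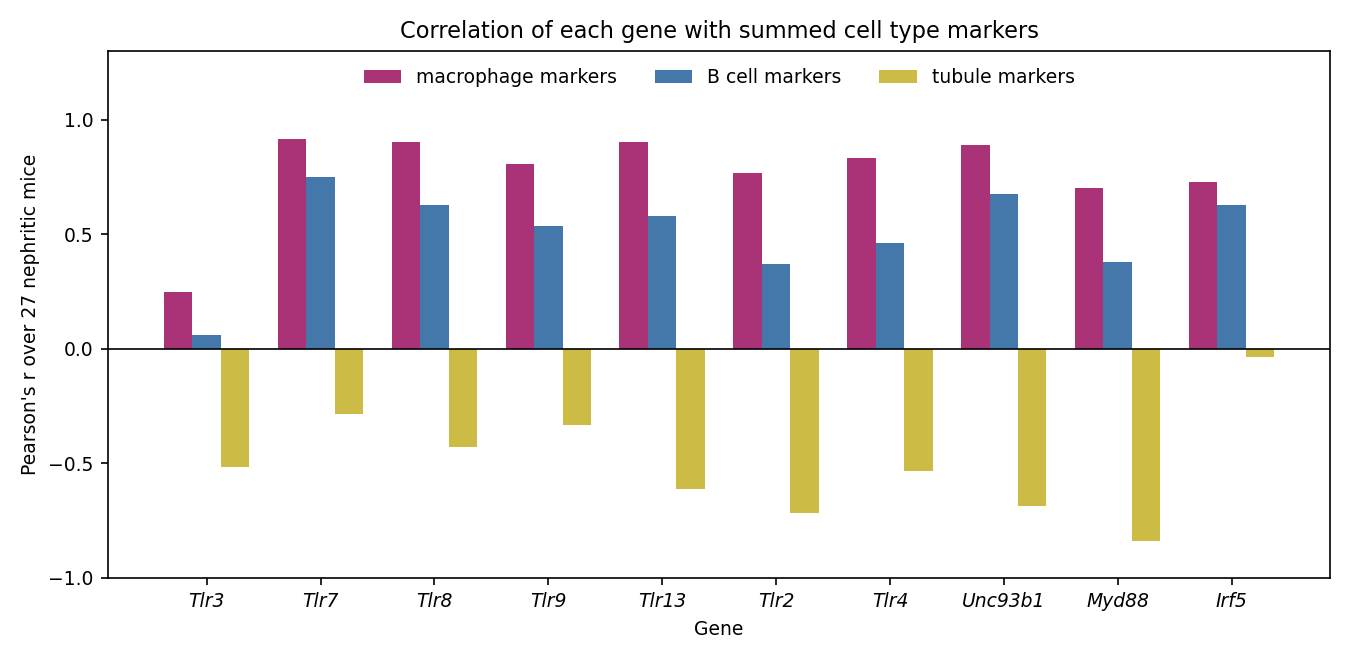
Pearson's r over 27 nephritic mice between the log2 level of each gene and the log2 summed level of 10 macrophage, 8 B cell or 8 tubule markers. Bars of macrophage markers run from 0.701 to 0.917 for the 9 genes other than Tlr3, which is at 0.246, and bars of tubule markers lie below 0 for all 10 genes.

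The 10 genes varied in how closely they followed each other from mouse to mouse. Residual log2 CPM of the 27 nephritic mice, after removing time point and set, gave r between 0.828 and 0.876 among Tlr7, Tlr8 and Tlr9, and r of 0.890 between Tlr8 and Tlr13 and of 0.898 between Tlr8 and Unc93b1. Tlr4 lay nearest to Tlr13 (r = 0.920) and Tlr2 to Myd88 (r = 0.868), so surface and endosomal receptors did not fall into separate blocks. Tlr3 reached at most 0.632, with Tlr2, and Irf5 at most 0.646, with Unc93b1, while r was −0.03 between Tlr3 and Irf5 and 0.311 between Irf5 and Myd88. All of these values share the depth and cell content of the same 27 libraries and are a description.

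Among 14229 genes with a mean of at least 1 CPM in nephritic mice, the nearest to Tlr7 by this measure were Adgre1 (r = 0.921), which codes for the macrophage antigen F4/80, Vsir (0.920) and Laptm5 (0.913). Tlr8 lay nearest to Ctss (r = 0.972), Clec4a2 (0.964) and Mpeg1 (0.955), and Tlr13 to Clec7a (r = 0.944), Ctsc (0.942) and Tgfbi (0.934). Tlr9 was nearest to Fgl2 (r = 0.905), Rassf4 (0.901) and Pik3ap1 (0.898), and Tlr4 to Ctsc (r = 0.938), Cysltr1 (0.936) and Ccr2 (0.931). Tlr2 was nearest to Slc31a2 (r = 0.938), the neutrophil chemokine gene Cxcl2 (0.932) and Tor3a (0.928). Unc93b1 lay nearest to Cyth4 (r = 0.974), Arrb2 (0.968) and Tyrobp (0.967), and Myd88 to Myo9b (r = 0.958), Arid5a (0.950) and Rap2b (0.949). The closest neighbours of Tlr3 were Fut10 (r = 0.840), Trib1 (0.821) and 3110043O21Rik (0.820), and those of Irf5 were Arhgap27os3 (r = 0.859), Asb2 (0.851) and Cxcl9 (0.849), lower values than for the other 8 genes.

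Time of day was tested separately in each group, as any difference among the 6 times, in edgeR. In young mice 2 of the 10 genes varied with time, Myd88 (adjusted p = 0.00143) and Irf5 (adjusted p = 0.0111), where 39.8% of the 16521 genes tested did. Myd88 was highest at ZT0, at 23.9 ± 1.2 CPM (SD, n = 7), and lay at 19.8 to 20.7 CPM at the other 5 times. Irf5 was lowest at ZT4, at 12.5 ± 1.4 CPM (n = 4), and, with sequencing set taken into account, highest at ZT16, at 17.7 ± 1.6 CPM (n = 4). Both share exon bases with a gene on the other strand, of which Acaa1a also varied with time in young mice (adjusted p = 2.1e-05) and Tnpo3 was not called (adjusted p = 0.285). The part of these shared exons in the result was not tested. Unc93b1 (adjusted p = 0.0617), Tlr13 (0.0702) and Tlr9 (0.0871) came next in this edgeR test and did not pass. With DESeq2 or with a 24 h cosine, Tlr13 and Unc93b1 passed as well, which made 4 genes of 10. Tlr7 passed without ZT8LU (adjusted p = 0.0265) and Tlr9 without ZT8RU (adjusted p = 0.0164), Tlr13 passed without any 1 of ZT20RL, ZT20LU and CR3LU, and Unc93b1 without any 1 of ZT12RU, ZT16RU, ZT200 and CR6LL.

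In nephritic mice 1 of the 10 genes, Tlr7, varied with time (adjusted p = 0.0257 in edgeR), where 21.6% of 16872 genes did. Tlr7 was lowest at ZT8 (3.58 ± 2.07 CPM, n = 4) and ZT0 (3.59 ± 0.67 CPM, n = 7) and highest at ZT12 (7.12 ± 2.65 CPM, n = 6). The mouse RX10RU, at ZT8, carried more of these transcripts than the other 3 mice of its time. Its values were 6.67 against at most 2.82 CPM for Tlr7 and 8.15 against at most 1.17 CPM for Tlr8. Without it 5 of the 10 genes varied with time, Tlr7 with Tlr8 (adjusted p = 0.00334), Tlr13 (0.0132), Tlr4 (0.0272) and Unc93b1 (0.0381) in edgeR. The call of Tlr7 was lost without HIL5RU and without RX9RL, with an adjusted p of up to 0.0676. It did not pass in Set 2 mice alone (adjusted p = 0.123) or with a 24 h cosine (adjusted p = 0.129) either.

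The rhythm of none of the 10 genes was called different between young and nephritic mice, where 6.27% of 17521 genes were called in the group by time test of edgeR. At an unadjusted p below 0.05 there was 1 gene of the 10, Irf5 (adjusted p = 0.0996), and DESeq2 also called 0. At ZT4 Irf5 lay at 24.5 ± 2.9 CPM in nephritic mice against 12.5 ± 1.4 CPM in young mice (n = 4 each), and at ZT0 at 17.2 ± 3.3 against 16.96 ± 4.21 CPM (n = 7 each). The ZT0 means pooled mice of Set 1 and Set 2, while all ZT4 mice were of Set 2. At ZT0 young mice had 19.6 to 21.7 CPM in Set 1 and 10.9 to 17.5 CPM in Set 2. Nephritic mice had 11.3 to 20.4 CPM in Set 1 and 14.3 to 19.9 CPM in Set 2. Without RX10RU the rhythm of Unc93b1 was called different (adjusted p = 0.0275).

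**Figure D5:**
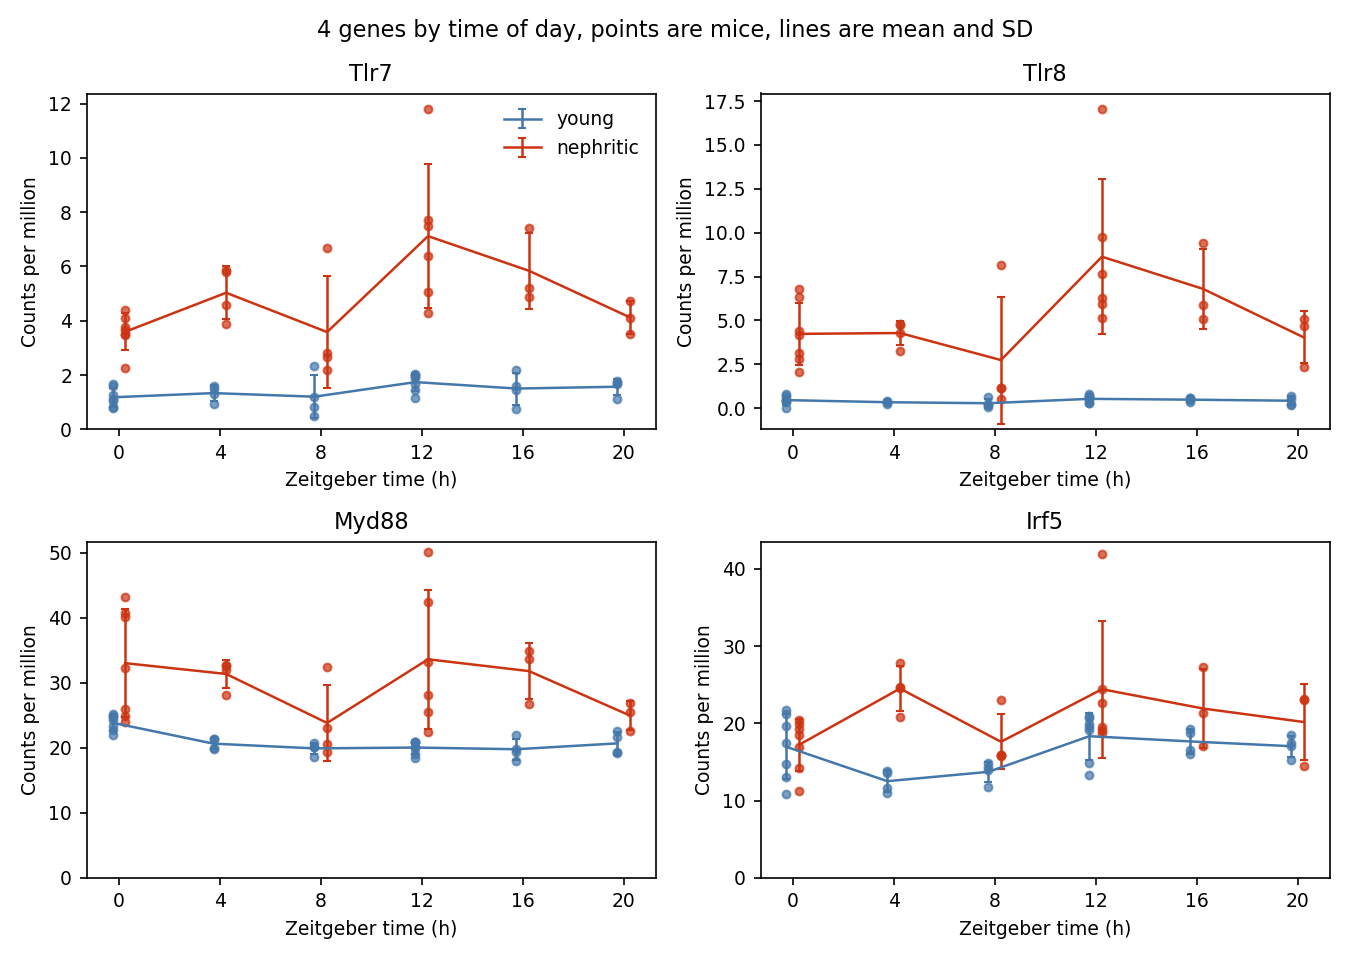
Level of Tlr7, Tlr8, Myd88 and Irf5 in CPM against Zeitgeber time in hours, for young and nephritic mice, with a point per mouse and lines through the mean with SD bars. Nephritic mice lie above young mice at every time for all 4 genes by their means, though those of Irf5 at ZT0 are close (17.2 and 16.96 CPM). Tlr7 reaches its highest mean at ZT12, and at ZT8 a single nephritic mouse, RX10RU, lies far above the other 3.

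In remission most of the genes were still higher than in young kidneys. Comparisons with remission mice used mice of ZT0 and ZT12, 14 young and 13 nephritic, and the same edgeR test. All 8 remission mice were coded as Set 2, so with set as a covariate they were compared mainly with Set 2 mice. Set 2 held 4 young and 4 nephritic mice at each of these times. Against nephritic mice, Unc93b1 changed by 0.17 ± 0.26 with the set covariate, 0.185 ± 0.246 in Set 2 mice alone and −0.205 ± 0.268 without that covariate. It was called in none of these fits. Against young mice 9 of 10 genes were higher, where 26% of 15982 genes were, and the median log2 change was 1.57. Tlr9 (2.79 ± 0.33, adjusted p = 9.0e-07) and Tlr8 (2.60 ± 0.47, adjusted p = 9.1e-05) rose most, followed by Tlr13 (1.77 ± 0.27, adjusted p = 1.7e-05) and Tlr7 (1.73 ± 0.22, adjusted p = 1.8e-06). Tlr2 (1.66 ± 0.21, adjusted p = 2.2e-06) and Unc93b1 (1.48 ± 0.20, adjusted p = 2.7e-06) were close behind. Irf5 (0.93 ± 0.10, adjusted p = 2.9e-07), Tlr4 (0.68 ± 0.14, adjusted p = 3.8e-04) and Myd88 (0.43 ± 0.07, adjusted p = 4.4e-05) completed the 9. Tlr3 did not pass (0.11 ± 0.08, 95% interval −0.04 to 0.27, adjusted p = 0.234). In the same comparison 8 of 10 macrophage markers were higher (median 2.28), with sums of 315.0 to 624.6 CPM in remission mice, as were all 8 B cell markers (median 4.55, sums of 9.16 to 185.2 CPM), 7 of 8 T cell markers (median 2.92, sums of 12.9 to 104.2 CPM), 5 of 7 dendritic cell markers (median 1.04) and 5 of 6 endothelial markers (median 0.55). Of the 8 tubule markers 3 were higher and 4 lower, and all 5 adrenal markers were lower. The median sum of the adrenal markers was 4.43 CPM in remission mice against 5.94 CPM over all 30 young mice. The part of these cell types in the levels of the 10 genes was not tested.

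Unc93b1 and Irf5 were above every one of the 30 young mice in all 8 remission mice, against 2.13% of 15982 genes in which that held. Unc93b1 lay at 27.7 to 103.0 CPM with a median of 55.1 in remission, and Irf5 at 23.1 to 32.9 CPM with a median of 28.9. The mouse s14, at ZT12, was the highest remission mouse for Tlr2, Tlr4, Tlr7, Tlr8, Tlr9, Tlr13, Unc93b1 and Myd88. All 9 calls held without s9. The run of the remission mice bears on these values, since all 8 came from it. In that run the young mouse ZT0LU had 27.1 CPM of Unc93b1, close to the lowest remission mouse and above the highest young original (24.1 CPM). Its own original had 19.9 CPM. The young mouse ZT12RU had 19.4 CPM in that run and 17.6 CPM in its original. These repeat values were scaled over all 69 libraries. In the 3 mice whose repeat library was closest to its own original, the level in that run differed from the first by a median log2 of 0.36 for Unc93b1 (0.14 to 0.44), 0.13 for Irf5 (0.05 to 0.24), 0.14 for Tlr9 (−0.17 to 0.64), −0.38 for Tlr8 (−1.25 to 0.02) and −0.40 for Tlr4 (−0.60 to −0.08). With run as a covariate bridged by these 3 mice, the call of Myd88 was lost (0.22 ± 0.18, adjusted p = 0.521) and the other 8 were kept. Fits with this covariate treated both libraries of a bridging mouse as separate samples, so their errors ignore that pairing.

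Against nephritic mice, remission moved few of the genes. Irf5 was higher (0.67 ± 0.16, adjusted p = 0.0037), where 14.6% of 16344 genes were called higher, and Tlr8 was lower (−1.01 ± 0.38, adjusted p = 0.0482), where 16.5% were called lower. Irf5 lay at 11.3 to 41.9 CPM with a median of 19.3 in the 13 nephritic mice, and all 8 remission mice were above that median though none was above the highest nephritic mouse. Tlr8 lay at 2.08 to 17.03 CPM with a median of 5.97 in the nephritic mice and at 0.743 to 9.19 CPM with a median of 2.51 in remission, and 3 remission mice lay below every nephritic mouse. Tlr13 had a similar direction, with a median of 7.45 CPM in nephritic and 3.05 CPM in remission mice, and did not pass (−0.73 ± 0.29, 95% interval −1.30 to −0.15, adjusted p = 0.0647). It passed without any 1 of RX12LL, s12, s14 and s4 (lowest adjusted p 0.0364), with DESeq2 (adjusted p = 0.0381), without the set covariate (adjusted p = 0.0158) and in 1 edgeR fit of all 3 groups (adjusted p = 0.0148). The median change over the 10 genes was −0.09, and that over all genes tested was 0.

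Neither call held once the run was taken into account. With run as a covariate bridged by 3 mice, Irf5 was 0.39 ± 0.20 (adjusted p = 0.156) and Tlr8 −0.90 ± 0.59 (adjusted p = 0.272) in edgeR, and with all 4 bridging mice 0.36 ± 0.18 (adjusted p = 0.133) and −0.61 ± 0.52 (adjusted p = 0.405). The call of Tlr8 was also lost without s9 (−0.97 ± 0.40, adjusted p = 0.0805) and, with adjusted p of up to 0.0941, without any 1 of the nephritic mice CRS6LU, CRS60, HIL5LL, RX10LU, RX12RU, RX9RL and RX11RU and of the remission mice s1, s3, s4, s8, s10 and s12, while that of Irf5 held without any 1 of them. Of the 8 genes that did not pass without this covariate, the 95% interval of Tlr13 lay below 0 and those of the other 7 crossed it, from a narrow −0.21 to 0.14 for Tlr3 to −0.36 to 0.98 for Tlr9 and −0.33 to 0.67 for Unc93b1. With run as a covariate bridged by 3 mice the direction turned for Tlr9 (−0.33 ± 0.44, adjusted p = 0.622), Unc93b1 (−0.60 ± 0.34, adjusted p = 0.201) and Tlr3 (0.04 ± 0.11, adjusted p = 0.824), and Myd88 was −0.41 ± 0.18 (adjusted p = 0.09) in edgeR. None of the 10 macrophage markers passed in the edgeR comparison without run (median −0.16), 4 of 6 endothelial markers were higher (median 0.62), and 1 of the 8 B cell markers, Pax5, was higher (1.75 ± 0.51, adjusted p = 0.013).

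The other pathway lists were read beside the 14.6% of all genes called higher and the 16.5% called lower in remission against nephritic mice. These values come from the edgeR fit without run as a covariate, and none with run is given for these genes. All remission libraries came from their own run, so run and remission cannot be told apart in these values. Of the 10 other receptors and co-receptors 1, Tlr12, was higher and 2, Tlr11 and Ly96, were lower. Of the 19 genes of the list for cytosolic nucleic acid sensing 1, Oas2, was lower (−0.998 ± 0.35, adjusted p = 0.0376). Of the 26 adaptors, kinases and transcription factors 1 was higher and 6 were lower. Among these 6 were Tbk1 (−0.46 ± 0.06, adjusted p = 1.7e-05) and Ikbke (−1.01 ± 0.30, adjusted p = 0.0165), a pair of related kinases that phosphorylate interferon regulatory factors. Of the 17 tested genes of trafficking and processing 3 were higher and none was lower, and of the 12 inhibitors 1, Otud1, was higher and 1, Tnfaip3, was lower. The genes named here from the remission comparison were chosen after their values were seen.

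Between ZT0 and ZT12 within remission mice (4 each), none of the 10 genes was called by edgeR, where 0% of 14451 genes were. At an unadjusted p below 0.05 there was 1 gene of the 10, Tlr8, and 1449 of all genes, and DESeq2 called 0 of the 10 and 24 of all genes. Tlr8 lay at 1.74 ± 0.91 CPM at ZT0 and at 4.71 ± 3.45 CPM at ZT12 (SD, n = 4 each), a log2 difference of ZT0 minus ZT12 of −1.46 ± 0.62 (adjusted p = 0.496). Without s9 edgeR called 202 of all genes and none of the 10.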

How the data were processed

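Kidney RNA of 65 NZB/W F1 mice was read from 69 deposited tables of counts per gene symbol, 4 of them repeat libraries. The authors aligned 150-base reads, counted unique alignments with at most 2 mismatches and deposited whole-number counts without normalization. Their methods describe a Burrows-Wheeler aligner, while the submitters' processing notes name HISAT and mm10. Of 24538 symbols, 15 without values were left out.

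Groups, times and sets came from the labels. The 10 genes, the pathway and marker lists and the tests were chosen with earlier results of these data known. Each fit used the genes whose counts summed to 100 or more over its mice. Counts were scaled with TMM factors and tested in R 4.3.3 with the quasi-likelihood F test of edgeR 4.0.16, with time point and sequencing set (Set 1 or Set 2) as covariates. P-values were adjusted by Benjamini-Hochberg over all genes of a fit, and the standard error was the size of the log2 change divided by the square root of F. Intervals are the change ± the normal 95% range. Replicates are separate mice, except in the fits with run as a covariate. There the first and the repeat library of each bridging mouse entered as separate samples, without a term for mouse. The standard errors and p-values of those fits therefore do not account for this pairing. Log2 CPM used a prior count of 2. DESeq2 1.42.0, limma 3.58.1, RLE factors, no filter, other covariates, cosines and leaving out each mouse were alternatives. The models were tested on simulated data.

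Named genes were the 10 genes, the 3 genes of each pathway list with the largest change among those called in nephritic mice, and the 3 nearest genes to each of the 10. Any other gene was named after its values were seen. Promoters came from RefSeq (GRCm38.p6), positions and exon lengths from GENCODE vM21.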

Additional observations from a re-analysis of the deposited data

Results flagged for a closer look

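Within each group and time of 4 to 10 mice, and over the 8 remission mice, a value was singled out when its gap to the next value took up more of the group's range than Dixon's 95% limit allows. Among 130 such groups 13 values stood apart, where chance alone gives about 1 in 20 for independent groups. These groups are not independent, since the same mice recur across the 10 genes and the remission mice were also grouped by time. The count is therefore a description and no test of an excess.

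The nephritic mouse RX10RU at ZT8 gave 6 of the 13, each the highest of 4 mice: Tlr2 at 14.49 CPM (next 6.82), Tlr7 at 6.67 (next 2.82), Tlr8 at 8.15 (next 1.17), Tlr13 at 9.71 (next 3.46), Unc93b1 at 89.6 (next 36.4) and Irf5 at 22.97 (next 15.9). The nephritic mouse HIL5RU at ZT12 was the highest of 6 for Unc93b1 (186.0 CPM, next 92.6) and Irf5 (41.9 CPM, next 24.5), and RX11LU at ZT4 the lowest of 4 for Myd88 (28.1 CPM, next 32.03).

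In young mice Tlr2 was low in ZT4RU (2.74 CPM, next 4.30) and high in ZT20LU (6.70 CPM, next 5.07), Tlr4 was high in ZT8RU (5.65 CPM, next 4.52), and Tlr7 was low in ZT20RU (1.12 CPM, next 1.67). The cause of none of these was tested.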

How the results depend on the processing

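All 10 calls between nephritic and young mice kept their direction and their side of the threshold under each alternative, as did all values of the remission to young comparison except Myd88 with run as a covariate. With time tested in young mice, 4 genes of the 10 passed with DESeq2 and 4 with cosines, against 2. In nephritic mice 3 passed with DESeq2, 0 in Set 2 mice alone, 0 with cosines and 0 to 5 without each mouse in turn, against 1, and the count over all genes was 5646 with DESeq2, 1994 without the set and 362 with cosines, against 3646. The difference in rhythm was called in 0 to 1 of the 10 genes and 638 to 1771 of all genes without each mouse in turn, against 1099, and in 2186 of all genes with DESeq2, 1715 in Set 2 mice alone and 121 with cosines. Between remission and nephritic mice 2 of the 10 passed, 1 without the filter, 1 in Set 2 mice alone, 1 without s9, 1 to 3 without each mouse in turn, and 0 with run as a covariate bridged by either 4 or 3 mice. That covariate left 2342 (4 mice) and 1693 (3 mice) of all genes called between remission and young mice, against 8260. Between ZT0 and ZT12 in remission 0 genes were called, 24 with DESeq2, 202 without s9 and 0 to 202 without each mouse in turn. The causes of these changes were not tested. The groups hold different mice, so they were not compared as pairs. The repeat libraries share a mouse with their originals, and that pairing was not modelled. Tlr8 and Tlr9 had 0 to 42 reads per young library, which limits the precision of their changes, and the 8 remission libraries were the shallowest of the 65 original libraries.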
